A study of Mus musculus with 6 samples.

Results

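The genes described here mark 2 kinds of granule-bearing immune cell in the mammary gland, eosinophils and mast cells. The 10 genes were chosen by symbol: Epx, Prg2 and Siglecf for eosinophils, and Cpa3, Mcpt4, Cma1, Tpsb2, Hdc, Fcer1a and Ms4a2 for mast cells. All 10 were measured, each by 1 probe set with 1 symbol, among 22180 genes in all. Whole inguinal mammary glands were taken from mice of the C57BL/6J strain at 4 weeks of age, and each of 6 glands gave 1 microarray. In 3 mice (Dermo1Cre/Mt1-mmp(fl/fl)), floxed Mt1-mmp (Mmp14 by its present symbol) was deleted in stromal cells by Cre recombinase driven by Dermo1 (present symbol Twist2), a gene of mesenchymal cells. The gene encodes a matrix metalloproteinase anchored in the cell membrane. Their 3 littermates (Mt1-mmp(+/+)) carried both intact copies, and Cre is named only for the floxed mice, so an effect of Cre itself cannot be told apart from loss of Mmp14.

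Eosinophils gather around the growing ends of the ducts at puberty, drawn by the chemokine eotaxin, and mast cells lie along the ducts and vessels and within the fat. Both cell types store their products in granules. Eosinophil granules hold a peroxidase (Epx) and major basic protein (Prg2), whereas mast cell granules hold proteases bound to heparin, together with histamine. Mast cells release these when IgE on their surface receptor is crosslinked, and they depend on the growth factor SCF (Kitl) and its receptor Kit. In whole tissue, fewer cells of a type and less RNA per cell cannot be told apart.

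Mast cell protease genes were well detected in all glands, and their small differences between the groups did not pass the test. The histamine-making enzyme Hdc and the IgE-binding receptor chain Fcer1a were higher in the knockout. Hdc no longer passed once any array other than knockout 3 was left out. Fcer1a lay close to background in the knockout and under it in wild type. The eosinophil granule genes read at background in both groups. In the fit across all genes with limma, 2 of the 10 genes rose (Hdc and Fcer1a) and 0 fell at a Benjamini-Hochberg adjusted p under 0.05, and 0 fell at an unadjusted p under 0.05 either. Among all genes 5.05% rose and 7.20% fell. With each array centred on its median, 1768 genes rose and 1333 fell, against 1121 and 1596 as reported. The groups did not overlap for 2 of the 10 genes, both higher in the knockout. Among all genes, 32.7% did not overlap in either direction, and 17.2% were higher in the knockout without overlap. The median difference, knockout minus wild type, was 0.14 log2 units over the 10 genes and 0.03 over all genes.

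As a check of the labels, Mmp14 itself averaged 8.62 ± 0.11 in the knockout and 10.88 ± 0.32 in wild type (log2 signal, SD, n = 3 arrays each). Knockout glands kept 21.0% of its wild-type signal, and the fall passed (limma adjusted p = 0.000454). Array medians lay between 3.77 and 3.89 log2 units. Arrays correlated at 0.990 to 0.992 within groups and at 0.975 to 0.983 between groups, across genes that are not independent replicates. The value table holds no detection call. A gene is therefore said here to be above background where its mean in a group exceeded 2.68 log2 units, the 33rd percentile of gene levels. By this measure 8 of the 10 genes were above background in at least 1 group and 7 in both.

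**Figure D1:**
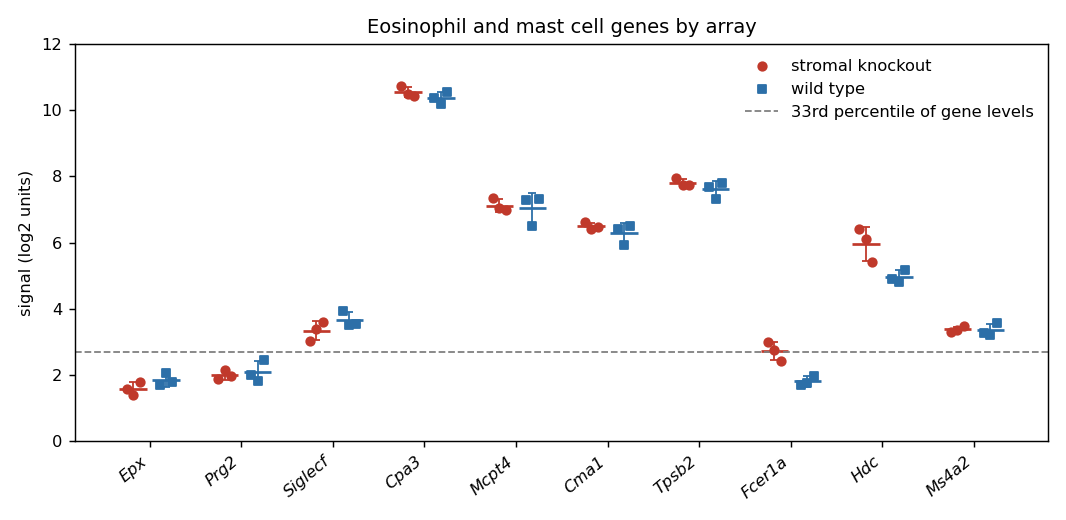
Signal of the 10 genes on each array, in log2 units, with stromal knockout as circles and wild type as squares. Horizontal bars are means, error bars are SD over 3 arrays, and the dashed line marks the 33rd percentile of gene levels (2.68). Epx and Prg2 lie under the line on all 6 arrays, Cpa3 lies above 10 on all 6, and the groups are apart for Fcer1a and Hdc.

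Epx, the peroxidase that defines eosinophil granules, read 1.57, 1.38 and 1.79 log2 units in the 3 knockout glands and 1.70, 2.08 and 1.78 in the 3 wild-type glands. Prg2, which encodes major basic protein, read 1.88, 2.15 and 1.97 in the knockout and 2.01, 1.83 and 2.45 in wild type. Both genes stayed under the background level on every array, so no level or change of either can be read. Siglecf, a sialic acid-binding receptor on the surface of mouse eosinophils and of some macrophages, was the 1 eosinophil gene above background. It read 3.03, 3.39 and 3.59 in the knockout and 3.93, 3.50 and 3.54 in wild type, and the groups overlapped. Its difference of -0.32 ± 0.18 (SE) did not pass (limma adjusted p = 0.326), with a 95% interval of -0.74 to 0.11.

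The wider eosinophil list had 27 measured genes, of which 2 rose and 3 fell (18.5%, against 12.2% of all genes), with a list median of -0.23. Rnase2a, a member of the eosinophil-associated ribonuclease family, read 7.82, 7.64 and 6.97 log2 units in the knockout and 2.30, 2.36 and 2.23 in wild type. All wild-type values lay under the background level, so the rise is given as at least 27.7-fold (limma adjusted p = 6.03e-05). Its relatives behaved otherwise. Ear6, Ear10 and Ear14 lay under background on every array, and Rnase2b read 2.71 to 3.03 in the knockout and 2.26 to 2.87 in wild type. The eosinophil granule gene Prg3 also lay under background on every array.

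The other genes of that list that passed are not private to eosinophils. Csf2rb, the shared signalling chain of the receptors for IL-3, IL-5 and GM-CSF, rose by 0.76 ± 0.14 (SE, limma adjusted p = 0.0132), and did not pass when wild type 3 was left out (adjusted p = 0.0511). Alox15, a lipoxygenase that mouse macrophages also make, fell by 2.26 ± 0.30 (limma adjusted p = 0.00374). Padi2, which converts arginine in proteins to citrulline, and the integrin chain Itga4 fell by 1.29 ± 0.19 and 0.94 ± 0.13. Ccr3, the receptor through which eosinophils sense eotaxin, read 2.53, 2.40 and 2.86 in the knockout and 3.28, 3.09 and 4.22 in wild type. The groups did not overlap, but the difference of -0.93 ± 0.29 did not pass (limma adjusted p = 0.0762). The IL-5 receptor gene Il5ra exceeded background on 1 of 6 arrays.

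The 4 mast cell proteases lay above background on all 6 arrays. Cpa3, the carboxypeptidase A of mast cells, read 10.73, 10.50 and 10.43 log2 units in the knockout and 10.37, 10.17 and 10.54 in wild type. The difference was 0.19 ± 0.14 (SE) and did not pass (limma adjusted p = 0.451), with a 95% interval of -0.14 to 0.52.

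Tpsb2, the beta tryptase, read 7.95, 7.73 and 7.73 in the knockout and 7.69, 7.33 and 7.80 in wild type. Mcpt4, the main chymase of connective tissue mast cells in mice, read 7.33, 7.05 and 6.98 in the knockout and 7.28, 6.51 and 7.33 in wild type. Cma1, a chymase gene of the same family whose product is also called mouse mast cell protease 5, read 6.61, 6.41 and 6.47 in the knockout and 6.41, 5.94 and 6.51 in wild type. The groups overlapped for all of them. None passed, with differences of 0.20 for Tpsb2, 0.08 for Mcpt4 and 0.21 for Cma1 and limma adjusted p-values of 0.469, 0.863 and 0.488. The 95% intervals were -0.16 to 0.55 for Tpsb2, -0.45 to 0.62 for Mcpt4 and -0.18 to 0.60 for Cma1, so changes of these sizes remain possible.

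The proteases shared an order of arrays, which was not particular to them. Over all 10 genes, wild type 2 was the lowest of all 6 arrays for 7. Within its groups Hdc also had knockout 1 highest, wild type 2 lowest and wild type 3 highest. Wild type 2 was the lowest of all 6 arrays for 4 of the 4 proteases, knockout 1 was the highest knockout array for 4 of 4, and wild type 3 was the highest wild-type array for 4 of 4. Without wild type 2 the differences were 0.10 for Cpa3, 0.06 for Tpsb2, -0.18 for Mcpt4 and 0.03 for Cma1, and none passed. The proteases of mucosal mast cells in mice, Mcpt1 and Mcpt2, and their relative Mcpt9 lay under background on all 6 arrays. The second tryptase gene, Tpsab1, read 3.95, 3.58 and 2.88 in the knockout and 3.04, 3.47 and 3.65 in wild type. Chymase and tryptase genes are close relatives, and whether their probes share targets was not tested.

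Hdc, histidine decarboxylase, is the enzyme that makes histamine, in mast cells, basophils and some other cells. It read 6.40, 6.12 and 5.40 log2 units in the knockout and 4.90, 4.80 and 5.19 in wild type, and all knockout arrays lay above all wild-type arrays. Hdc rose by 1.01 ± 0.25 (SE), or 2.01-fold (limma adjusted p = 0.0377, and exact two-sided permutation p = 0.1, the smallest that 3 against 3 arrays can give). The call was lost without knockout 1, knockout 2 or any wild-type array (adjusted p 0.0663 to 0.117), with differences of 0.80 to 1.12. Without knockout 3 the difference was 1.30 and the call was kept. It was also lost with every probe set tested (adjusted p = 0.105).

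Slc18a2, the transporter that loads histamine and serotonin into granules, read 5.24, 4.69 and 4.67 in the knockout and 4.38, 4.15 and 4.67 in wild type. Its groups met without overlap at 4.67, and the difference of 0.47 ± 0.20 did not pass (limma adjusted p = 0.184). Histamine is broken down by the enzymes encoded by Hnmt and Aoc1. Hnmt differed by 0.38 ± 0.22 (limma adjusted p = 0.320). Aoc1 fell by 1.02 ± 0.18 (limma adjusted p = 0.0109), but all knockout arrays lay under background, so the fold is given as at least 1.13. It was the 1 of 10 measured genes that passed in the list of receptors and breakdown enzymes for histamine, leukotrienes and prostaglandin D2. The histamine receptor genes Hrh1, Hrh2, Hrh3 and Hrh4 were among the 9 that did not pass.

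Fcer1a encodes the chain of the high-affinity receptor that binds IgE. It read 2.98, 2.77 and 2.44 log2 units in the knockout and 1.68, 1.75 and 1.98 in wild type, with no overlap. Fcer1a rose by 0.92 ± 0.17 (SE, limma adjusted p = 0.0115, exact two-sided permutation p = 0.1). It exceeded background on 2 of 3 knockout arrays and 0 of 3 wild-type arrays, so the fold can be bounded only as at least 1.03, and the signal sat at the low end of the array in both groups.

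Ms4a2, the beta chain that amplifies the receptor's signal, read 3.30, 3.36 and 3.47 in the knockout and 3.28, 3.22 and 3.58 in wild type. The groups overlapped, and the difference of 0.02 ± 0.13 did not pass (limma adjusted p = 0.950), with a 95% interval of -0.29 to 0.33. Fcer1g, the signalling chain that this receptor shares with other Fc receptors and that macrophages also express, read 8.90, 8.59 and 8.62 in the knockout and 9.11, 9.09 and 8.99 in wild type. Its difference of -0.36 ± 0.13 did not pass (limma adjusted p = 0.117). Of the 3 chains of the receptor, 1 passed the test.

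**Figure D2:**
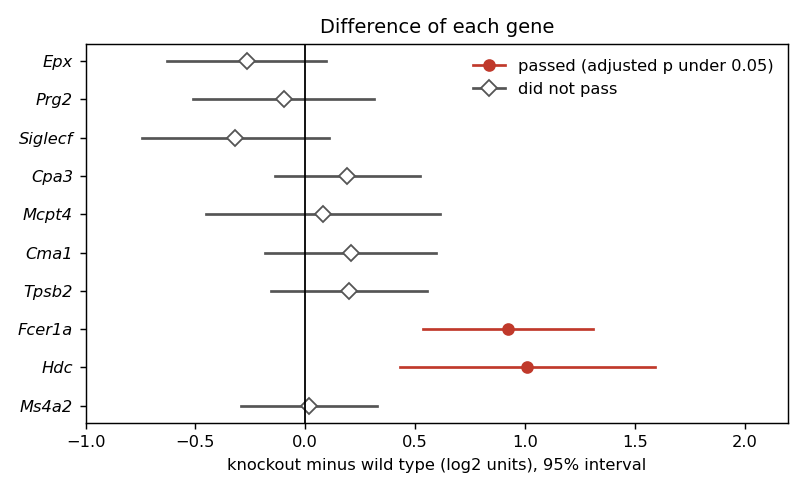
Difference of each of the 10 genes, knockout minus wild type in log2 units, with 95% intervals from limma (3 arrays per group). Filled circles passed at an adjusted p under 0.05 (Hdc at 1.01, and Fcer1a), and open diamonds did not pass. Fcer1a lay under background on all wild-type arrays, so its point is no measured size and its fold is bounded only as at least 1.03. The intervals of the 4 proteases all include 0.

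Gata2, a transcription factor that mast cells and basophils need and that acts on Hdc and the IgE receptor genes, also moved. It is made by endothelium and fat cell precursors as well. Gata2 read 6.91, 7.02 and 6.95 log2 units in the knockout and 6.02, 5.82 and 6.06 in wild type, and it rose by 0.99 ± 0.12 (SE, limma adjusted p = 0.00236). Mitf, a second transcription factor that mast cells need, differed by 0.13 ± 0.18 (limma adjusted p = 0.707).

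The promoters of both genes that rose are shown beside those of Ms4a2, the receptor chain that did not pass, and Cpa3, a protease that did not pass either. Each line gives the 250 bases before the gene's start, 5′ to 3′ on the gene's strand, from RefSeq (build GRCm38.p6). Of the 10 genes, 8 matched an entry there. Capitals mark AGATAA or TGATAA, letters that GATA factors bind, and CACGTG or CATGTG, letters that Mitf binds. Each was searched on either strand, and no 2 matches overlap. GATA letters that end in G (AGATAG or TGATAG) were not searched, and TGATAG stands unmarked in the window of Hdc. The windows lie on the minus strand at chr1:173227230-173227479 for Fcer1a, chr2:126618679-126618928 for Hdc, chr19:11623720-11623969 for Ms4a2 and chr3:20242182-20242431 for Cpa3.
Fcer1a: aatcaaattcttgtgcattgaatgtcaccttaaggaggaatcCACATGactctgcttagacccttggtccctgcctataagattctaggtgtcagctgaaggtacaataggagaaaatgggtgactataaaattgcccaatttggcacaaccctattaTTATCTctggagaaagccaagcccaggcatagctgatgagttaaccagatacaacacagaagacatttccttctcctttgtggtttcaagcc
Hdc: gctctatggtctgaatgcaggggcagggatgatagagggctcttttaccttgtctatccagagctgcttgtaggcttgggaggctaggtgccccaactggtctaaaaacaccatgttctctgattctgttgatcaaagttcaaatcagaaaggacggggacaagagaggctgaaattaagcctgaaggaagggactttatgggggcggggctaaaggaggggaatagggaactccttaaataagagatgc
Ms4a2: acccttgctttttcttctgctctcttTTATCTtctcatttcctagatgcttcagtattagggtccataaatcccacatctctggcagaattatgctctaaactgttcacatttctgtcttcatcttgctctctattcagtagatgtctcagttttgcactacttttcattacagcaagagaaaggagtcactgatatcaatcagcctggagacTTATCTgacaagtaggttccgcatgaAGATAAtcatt
Cpa3: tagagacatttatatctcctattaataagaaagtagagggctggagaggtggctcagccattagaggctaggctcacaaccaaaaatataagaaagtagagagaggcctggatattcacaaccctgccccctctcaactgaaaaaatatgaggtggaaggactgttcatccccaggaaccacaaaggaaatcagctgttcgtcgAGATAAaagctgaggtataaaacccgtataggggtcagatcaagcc
The searched GATA letters occurred 1 time in the window of Fcer1a, 3 times in that of Ms4a2, 1 time in that of Cpa3. In that of Hdc they occurred 0 times. The Mitf letters occurred 1 time in the window of Fcer1a and 0 times in the other 3. Of the matched windows not shown, that of Mcpt4 held the GATA letters 1 time and those of Cma1, Siglecf and Epx 0 times. The Mitf letters occurred 2 times in that of Siglecf and 0 times in those of Mcpt4, Cma1 and Epx. Among 32851 promoter windows of the same length, 16.6% held the GATA letters and 17.6% the Mitf letters. Any part of Gata2 in the rises of Hdc and Fcer1a was not tested.

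Genes of mast cell granules and mediators, a list that includes Cpa3, Mcpt4, Cma1, Tpsb2 and Hdc, moved in both directions. Of 22 measured genes in that list, 2 rose and 2 fell (18.2%, against 12.2% of all genes), with a list median of 0.14. Ltc4s, which makes leukotriene C4, rose by 0.51 ± 0.11 (SE, limma adjusted p = 0.0263), and did not pass once any of the 6 arrays was left out (adjusted p 0.0504 to 0.0965). The second rise was Hdc. As a result the list had 0 rises without knockout 1, knockout 2 or any wild-type array, and 1 without knockout 3. Tph1, which begins serotonin synthesis in mast cells and also in mammary epithelium, read 3.15, 2.93 and 2.99 in the knockout and 6.05, 6.63 and 5.34 in wild type, and fell by 2.98 ± 0.29 (limma adjusted p = 0.00106). Hpgds, a prostaglandin D2 synthase of mast cells that some macrophages also make, fell by 0.84 ± 0.12 (limma adjusted p = 0.00443).

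Of 27 measured surface and transcription factor genes of mast cells, 3 rose and 5 fell (29.6%), with a list median of -0.09. That list includes Siglecf, Fcer1a and Ms4a2, and Fcer1a is among its rises. Kit, the SCF receptor, which luminal cells of the mammary ducts also carry, read 7.74, 7.53 and 7.81 in the knockout and 8.90, 8.59 and 9.01 in wild type. It fell by 1.14 ± 0.15 (SE, limma adjusted p = 0.00350). Cd33, a sialic acid-binding receptor of myeloid cells, fell by 0.96 ± 0.14 (limma adjusted p = 0.00509). The list had 3 falls without knockout 2, knockout 3, wild type 1 or wild type 3.

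Mrgprb2 and its relative Mrgprb1, receptors of connective tissue mast cells in mice, are close to private to that cell and were named after their values had been seen. Mrgprb1 read 5.51, 5.50 and 5.62 in the knockout and 5.20, 4.14 and 5.21 in wild type, and Mrgprb2 read 5.02, 5.08 and 4.34 in the knockout and 4.43, 3.74 and 4.31 in wild type. Neither passed, with differences of 0.70 ± 0.28 and 0.66 ± 0.25 (SE, limma adjusted p = 0.156 and 0.141). Wild type 2 was the lowest array for both, as it was for the 4 proteases.

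**Figure D3:**
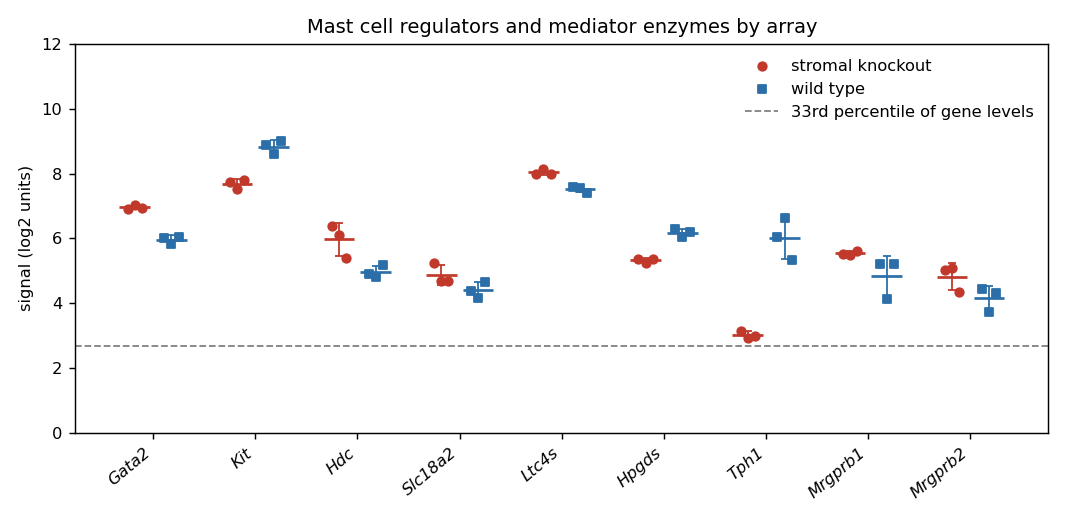
Signal in log2 units of mast cell regulators, mediator enzymes and receptors on each array, with stromal knockout as circles and wild type as squares. Horizontal bars are means, error bars are SD over 3 arrays, and the dashed line is the 33rd percentile of gene levels. Gata2, Hdc and Ltc4s lie higher in the knockout, Kit, Hpgds and Tph1 lie lower, and wild type 2 (the middle square) is the lowest array for Mrgprb1 and Mrgprb2.

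Genes that relay the IgE receptor's signal inside the cell are shared with many other immune cells. Of 18 measured, 5 fell and 0 rose (27.8%), with a list median of -0.27. The prostaglandin synthase gene Ptgs2 fell by 1.47 ± 0.30 (SE, limma adjusted p = 0.0188), the phospholipase Plcg2 by 0.99 ± 0.17, the kinase Fyn by 0.77 ± 0.11, the adaptor Lcp2 by 0.73 ± 0.13 and the phospholipase Pla2g4a by 0.64 ± 0.13. Ptgs2 did not pass with any wild-type array left out, nor Pla2g4a without knockout 1, knockout 2, wild type 2 or wild type 3 (adjusted p up to 0.0669 and 0.0663). Without wild type 2 or wild type 3 the list had 3 falls.

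The list of recruitment and growth signals for eosinophils holds chemokines and cytokines, and also other genes such as Lgals3 and Postn. Of its 22 measured genes, 8 fell and 0 rose (36.4%, against 12.2% of all genes), with a list median of -0.23. With 1 array left out, 6 to 9 fell. Lgals3 and Postn, named after their values had been seen, were among the 8, with differences of -0.97 and -0.93. The chemokine Ccl12 read 2.14, 2.75 and 2.64 in the knockout and 4.35, 4.28 and 3.95 in wild type, and it fell (limma adjusted p = 0.00203). It exceeded background on 1 of 3 knockout arrays, so no size is given for its fall. Ccl8 fell by 1.49 ± 0.26 and Ccl7 by 1.47 ± 0.27 (SE). Il33, an alarm cytokine that activates mast cells and type 2 lymphoid cells, read 5.65, 5.23 and 5.60 in the knockout and 6.35, 6.85 and 6.58 in wild type, and fell by 1.10 ± 0.17 (limma adjusted p = 0.00723).

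The eotaxin genes were named after their values had been seen. Ccl11, eotaxin 1, read 9.37, 9.16 and 9.31 in the knockout and 9.25, 9.54 and 9.37 in wild type, with overlap. Its difference of -0.10 ± 0.13 did not pass (limma adjusted p = 0.661), with a 95% interval of -0.40 to 0.19. Ccl24, eotaxin 2, read 7.16, 6.94 and 6.31 in the knockout and 7.25, 7.64 and 7.50 in wild type, without overlap. Its difference of -0.66 ± 0.22 did not pass either (limma adjusted p = 0.103). Il5, the cytokine that drives eosinophil formation, averaged 1.91 in the knockout and 1.85 in wild type, under background.

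In the list drawn up as growth signals for mast cells, 4 of 10 measured genes fell and 0 rose (40%), with a list median of -0.19. They were Nrg1, Il33, the epithelial cytokine Tslp and Tgfb1, of which Il33 and Tslp also stand in the recruitment list. Whether these 4, Nrg1 and Tgfb1 in particular, sustain mast cells in this gland was not tested. Nrg1 fell by 1.11 ± 0.20, Tslp by 0.91 ± 0.18 and Tgfb1 by 0.57 ± 0.13 (SE, limma adjusted p = 0.0123, 0.0155 and 0.0291). Kitl, the gene for SCF and named after its values had been seen, read 8.64, 8.53 and 8.72 in the knockout and 8.70, 8.79 and 8.76 in wild type. Its difference of -0.12 ± 0.11 did not pass (limma adjusted p = 0.559). Without any 1 array other than knockout 3 the list had 2 falls. Nrg1 did not pass once wild type 1 was left out (adjusted p = 0.0520), Tslp without knockout 1, knockout 2, wild type 2 or wild type 3 (up to 0.0594), and Tgfb1 without any array other than knockout 3 (up to 0.0937).

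**Figure D4:**
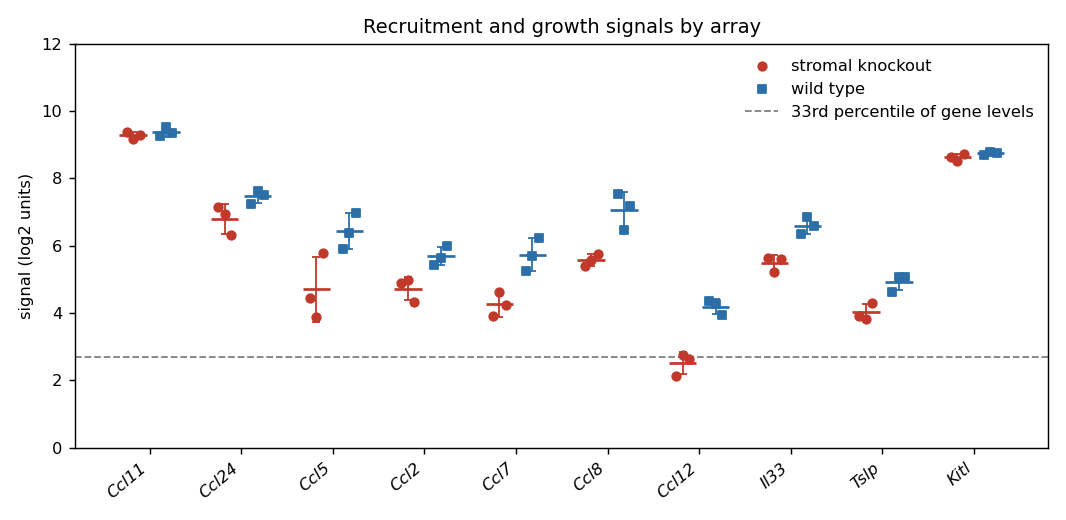
Signal in log2 units of chemokines, alarm cytokines and SCF (Kitl) on each array, with stromal knockout as circles and wild type as squares. Horizontal bars are means, error bars are SD over 3 arrays, and the dashed line is the 33rd percentile of gene levels. Ccl11 and Kitl overlap between the groups, whereas Ccl7, Ccl8, Ccl12, Il33 and Tslp lie lower in every knockout gland. Ccl24 also lies lower in every knockout gland, although its difference did not pass.

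**Figure D5:**
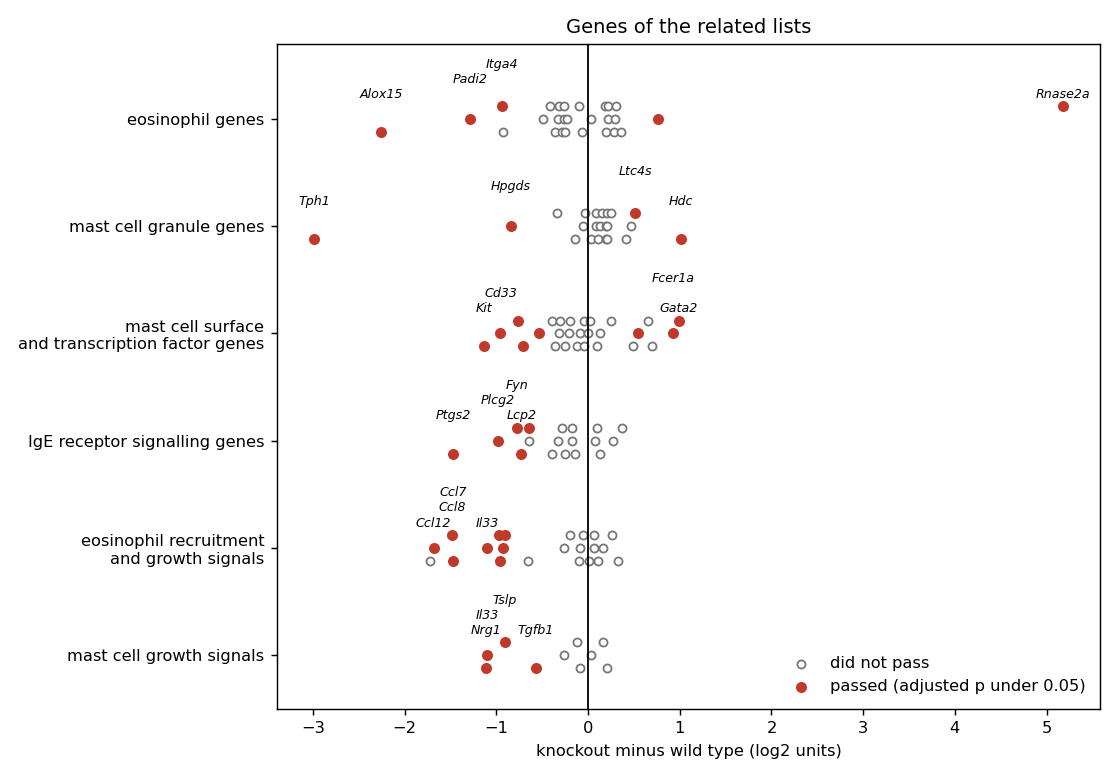
Difference of every measured gene in the 6 related lists, knockout minus wild type in log2 units. Filled circles passed at an adjusted p under 0.05 and open circles did not, and up to 4 genes that passed are named per list. Rnase2a, under background in wild type, is drawn at its log2 difference, although its fold is known only as at least 27.7, and all genes that passed in the 3 lowest lists lie left of 0.

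Hdc and Fcer1a are also made by basophils, and Hdc by neutrophils. Of 11 basophil genes 3 rose (Gata2, Fcer1a and Cebpa) and 1 (Itga2) fell (36.4%, against 12.2% of all genes). Cebpa, which fat cells also make, rose by 0.74 ± 0.15 (SE, limma adjusted p = 0.0179), a call lost without knockout 2, wild type 2 or wild type 3 (up to 0.0654). The basophil protease Mcpt8 averaged 2.49 in the knockout and 2.71 in wild type, near background, and Prss34 averaged 3.15 and 2.83 (limma adjusted p = 0.123). Array means over the basophil list ranged from 4.30 to 4.33 in the knockout and from 4.18 to 4.26 in wild type. That list holds Fcer1a and Ms4a2, so its count and its means are not separate from the rise of Fcer1a. Of 15 neutrophil markers 0 rose and 2 fell (13.3%, close to the 12.2% of all genes). The falls were Ltf and Lcn2, with differences of -2.22 and -0.96, against a list median of 0.04. Array means over the 15 markers, with Ltf and Lcn2 included, were 3.49 to 3.82 in the knockout and 3.72 to 3.89 in wild type. Mpo, Camp and Ngp lay under background on all 6 arrays. The part of these cells in the rise of Hdc and Fcer1a was not tested.

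Marker genes of several other cell types also differed between the groups. Of 18 macrophage markers 9 fell and 0 rose (50%, against 12.2% of all genes), with array means of 7.54 to 7.62 in the knockout and up to 8.27 in wild type, without overlap. The number that fell ranged from 3, without knockout 2 or wild type 1, to 10, without wild type 2. Of 11 luminal epithelium markers 11 fell, with array means of 5.16 to 5.44 in the knockout and 7.51 to 7.73 in wild type. Of 10 thermogenic fat markers 6 rose and 0 fell, with array means of 7.66 to 8.34 in the knockout and 5.71 to 7.09 in wild type. Their part in the falls of Kit, Tph1, Hpgds, Alox15 and the chemokines, and in the rise of Gata2, was not tested. Skeletal muscle markers averaged 3.50 to 3.64 in the knockout and 3.47 to 5.63 in wild type, where wild type 1 was the highest. Of 15 muscle markers 1 rose, and 0 without knockout 2. Without wild type 1 the proteases still did not pass, Hdc lost its call (adjusted p = 0.117) and Fcer1a kept its own (0.0499).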

How the data were processed

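Signals came from Affymetrix whole-transcript arrays hybridised with cDNA from 400 ng of total RNA, per the labels' protocols. The deposited table gives log2 signals, 1 for each probe set on each array. RMA and limma are named, without version, per the submitters' processing notes. The log base was taken as 2 from RMA and the range of the values (0.05 to 13.4), and no chip definition was used here.

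Of 41345 probe sets, 23521 carry 1 symbol, and the probe set with the highest mean was kept for each of 22180 genes. Symbols were checked by Entrez identifier against RefSeq (GRCm38.p6), which altered 0. Knockout and wild type were compared with limma 3.58.1 (lmFit, eBayes, no trend) under R 4.3.3, with p-values adjusted over all genes. SE and 95% intervals are the moderated ones. Of the steps, only the limma fit was tested on simulated data. Where all arrays of a group lay under background, the bound on the fold sets that group to 2.68 and leaves the other group's mean as measured. The number of arrays limits the precision.

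The members and the 19 related lists (281 distinct genes, 261 measured) were chosen with earlier results of these data known. Of each list, counts are given with up to 4 genes past the threshold by size; genes completing a count of 5 or fewer, and Ccr3, Il5ra, Prg3, the Ear and Mcpt relatives, Tpsab1, Slc18a2, Hnmt, Mitf, Fcer1g, Mcpt8, Prss34 and Il5, were named after their values had been seen. The lists for type 2 lymphoid cells (1 rose and 1 fell of 10), B cells (0 and 2 of 10), T cells (0 and 1 of 10), fibroblasts (0 and 6 of 12), white fat (2 and 0 of 9) and skin (0 and 2 of 11) are counted here alone, against 5.05% rising and 7.20% falling among all genes. The B cell falls numbered 0 without any 1 array other than knockout 3 (1) or wild type 2 (2). T cell falls numbered 0 without knockout 1, knockout 2 or wild type 2, and 1 without any other array. Cd2, the T cell gene that fell with all arrays kept, itself passed only without wild type 1 (limma adjusted p = 0.0454). White fat rises numbered 0 without knockout 2 and 1 without knockout 1 or wild type 1. The lymphoid rises numbered 2 without wild type 2. Alternatives were a filter on low genes, trends, array weights, repeated quantile normalization, median centring, other probe set rules, the replicate block, 2 other background rules, a threshold of 0.1 and each array left out.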

Additional observations from a re-analysis of the deposited data

How the results depend on the processing

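Leaving out 1 array at a time gave 494 to 877 genes that rose and 969 to 1427 that fell, against 1121 and 1596. Of the 10 genes, 1 to 2 then rose and 0 fell. Hdc differed by 0.80 to 1.30. Fcer1a kept its call each time (adjusted p 0.00840 to 0.0499). Median centring gave 1768 rises among all genes, against 568 with every probe set tested and 689 with the replicate block. The rises among the 10 genes then numbered 2 with median centring, and 1 with every probe set tested, with the replicate block or with low genes left out. Under the filter on low genes Fcer1a was not tested, as its mean lay under the level. Hdc kept its difference of 1.01 but not its call with every probe set tested (adjusted p = 0.105) and with the replicate block (0.0705), and the cause was not tested. Same-numbered arrays did not deviate together (correlations across genes of -0.05 to -0.03). With 3 arrays per group, this cannot settle whether the numbers pair the mice. The block altered no other call among the 10. Both other background rules left 7 genes above background, against 8, without Fcer1a. The 8 genes that did not pass also did not pass under any alternative in which they were tested. Arrays of 3 mice each limit what can be seen, and signals near background understate changes.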
